A study of Mus musculus with 12 samples.

Results

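Notch1, Notch2, Dll1, Jag1, Hes1, Hes5, Hey1, Heyl and Neurog2, that is 9 genes of the Notch pathway and of its proneural output, were followed across 12 arrays of mouse neural progenitor cells (NPCs). They were chosen by name, 9 of 21154 named genes, and all probes matched to them were taken, 11 of the 55681 on the array. The study used either NSEB5-2C, an NPC line differentiated in culture from EB5 embryonic stem cells (which carry a blasticidin resistance gene at Oct4), or N31, derived from NSEB5-2C through induced pluripotent stem cells with inducible reprogramming factors, and which line each array came from is not given in the sources used here. The cells were kept on gelatin with epidermal growth factor and basic fibroblast growth factor. The 12 arrays fell into 6 groups of 2. Each group received retrovirus carrying EGFP, Mkl1 or Srf in an overexpression experiment, or a short hairpin RNA against EGFP (shEGFP) or against Actb (shActb_1 and shActb_2, separate hairpins) in a knockdown experiment. EGFP is a fluorescent protein and served as the control, Srf is a transcription factor, Mkl1 is its cofactor, held back by monomeric actin, and Actb encodes β-actin. All 6 groups share the medium, the retroviral infection and, by the study's methods, puromycin selection of infected cells. The EGFP and shEGFP groups are the controls of their own experiments only. The study describes its duplicates for the Actb knockdown as technical, so they show array-to-array spread and not the spread between cultures. Nothing in the sources used here says whether the overexpression duplicates were separate cultures. The fit pooled the spread of the duplicates over all 12 arrays. The p-values of both experiments therefore rest in part on technical duplicates and do not measure the spread between cultures.

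Notch receptors sit at the cell surface and are activated by ligands of the Delta and Jagged families on neighbouring cells. Cleavage then releases the receptor's intracellular part, which joins the DNA-binding protein RBPJ in the nucleus and turns on genes such as those of the Hes and Hey families. Hes and Hey proteins are repressors, and in neural progenitors they hold down proneural factors such as Neurog2, which drive neuronal differentiation and themselves turn on Notch ligands.

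In the RefSeq annotation of GRCm38.p6 the receptor genes lie at chr2:26457902-26503822 (Notch1) and chr3:98013538-98150367 (Notch2), and the ligand genes at chr17:15367354-15376932 (Dll1) and chr2:137081451-137116520 (Jag1). The effector genes lie at chr16:30065357-30067796 (Hes1), chr4:154960626-154962372 (Hes5), chr3:8663359-8667038 (Hey1) and chr4:123233556-123249870 (Heyl), and Neurog2 lies at chr3:127632733-127635636. RefSeq promoter windows, from 250 bases before to 50 bases after a transcription start, were at hand for 6 of the 9 genes. Hes1, Hey1 and Heyl had no window at hand, so their promoters were not searched. The windows at hand were searched on both strands for the RBPJ core GTGGGAA, held by 6.38% of 32851 promoter windows of this length, for the E-box CANNTG (72.3%), for the N-box CACNAG (42.5%) and for the CArG box, the Srf motif (1.63%). The Hes5 window is shown because it alone, among the member windows searched, held the RBPJ core (2 matches) and the CArG box (1 match). The Jag1 window is shown because Jag1 was a member that changed below. The window of Nrarp, a feedback inhibitor of the pathway, is shown because Nrarp rose in each of the 4 comparisons with a control. Capitals mark RBPJ cores, E-boxes and CArG boxes, and no RBPJ core overlapped another motif.
Hes5, chr4:154960673-154960972, plus strand: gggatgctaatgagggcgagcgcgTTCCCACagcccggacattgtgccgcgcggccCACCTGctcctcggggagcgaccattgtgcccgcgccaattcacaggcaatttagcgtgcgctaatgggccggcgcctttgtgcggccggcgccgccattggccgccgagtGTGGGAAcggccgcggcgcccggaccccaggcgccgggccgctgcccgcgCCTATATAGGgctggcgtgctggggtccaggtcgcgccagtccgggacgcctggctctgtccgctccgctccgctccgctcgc
Jag1, chr2:137116471-137116770, minus strand: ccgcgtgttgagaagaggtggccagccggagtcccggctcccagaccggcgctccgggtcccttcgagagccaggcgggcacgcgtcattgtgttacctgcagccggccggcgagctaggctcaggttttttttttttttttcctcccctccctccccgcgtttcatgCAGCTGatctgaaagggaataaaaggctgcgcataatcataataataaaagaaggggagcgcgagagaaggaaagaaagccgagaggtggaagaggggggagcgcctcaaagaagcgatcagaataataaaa
Nrarp, chr2:25180508-25180807, plus strand: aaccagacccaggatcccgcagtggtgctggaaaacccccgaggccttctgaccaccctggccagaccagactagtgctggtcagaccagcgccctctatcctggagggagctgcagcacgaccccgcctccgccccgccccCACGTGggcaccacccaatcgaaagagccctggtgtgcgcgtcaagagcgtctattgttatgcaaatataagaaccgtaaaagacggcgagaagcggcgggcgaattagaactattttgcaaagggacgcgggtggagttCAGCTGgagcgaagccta
The Jag1 and Nrarp windows held the E-box, 1 and 2 times, and neither the RBPJ core nor the CArG box. A match or its absence describes the letters of a window and not the binding of a factor.

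Levels are log2 of the processed signal minus the array's own 75th percentile, so a level of 0 is as bright as the probe at that percentile. Between 59.29% and 72.5% of probes per array were well above background, and duplicates correlated at r = 0.993 to 0.998, with the lowest value in EGFP. The Actb probe read lower with each hairpin (log2 fold changes of -0.53 and -0.65), and Acta2, Tagln and Cnn1, genes known to respond to Srf and Mkl1, rose in each comparison with a control. Myl9, the fourth such gene on the list, rose in the other 3 (3.12 to 4.33) and was 0.26 higher on the arrays labelled Srf, short of the threshold (adjusted p = 0.0559). The brightest Srf probe went against its label: it was 1.18 higher on the Mkl1 arrays than on the EGFP arrays and 1.40 lower (log2 fold change -1.40) on the arrays labelled Srf, and a second Srf probe also read lower there (-2.46). The Mkl1 gene, listed as Mrtfa, differed by 0.17 on its own arrays (adjusted p = 0.31). By the study's methods the overexpression vectors carried the open reading frames of Srf and Mkl1. Whether these probes lie within those frames was not checked, so whether they read the introduced genes is not known. Because the Srf probes read lower there, these arrays are named below by their label, as the arrays labelled Srf. Of 10 neural progenitor markers, 9 were well above background on both arrays of every group. Olig2 was the exception, with 1 of 12 arrays. The summed level of the 10, on the linear scale, ran from 254 to 258 in shEGFP and from 365 to 367 in shActb_2, the groups with the lowest and highest sums. Vim alone made up 87.8% to 92.4% of it, and without Vim the order changed, with 21.2 to 25.3 in EGFP, 21.8 to 22.5 on the arrays labelled Srf, 24.8 to 25.7 in shEGFP, 27.9 to 30.0 with shActb_1, 36.3 to 36.5 with shActb_2 and 38.3 to 39.3 with Mkl1. RNA from fewer cells of a type and less RNA per cell cannot be told apart in such bulk samples.

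Of the 9 members, 5 (Notch1, Notch2, Jag1, Hes1 and Hey1) were well above background on all 12 arrays. Hes5 and Neurog2 reached it on 8 arrays each, Heyl on 2 and Dll1 on none. A probe entered a comparison when either group had it well above background on both arrays, which left 5 members in each overexpression comparison and 7 in each hairpin comparison. A probe was said to rise or fall at a Benjamini-Hochberg adjusted p under 0.05 over all probes tested (limma).

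**Figure D1:**
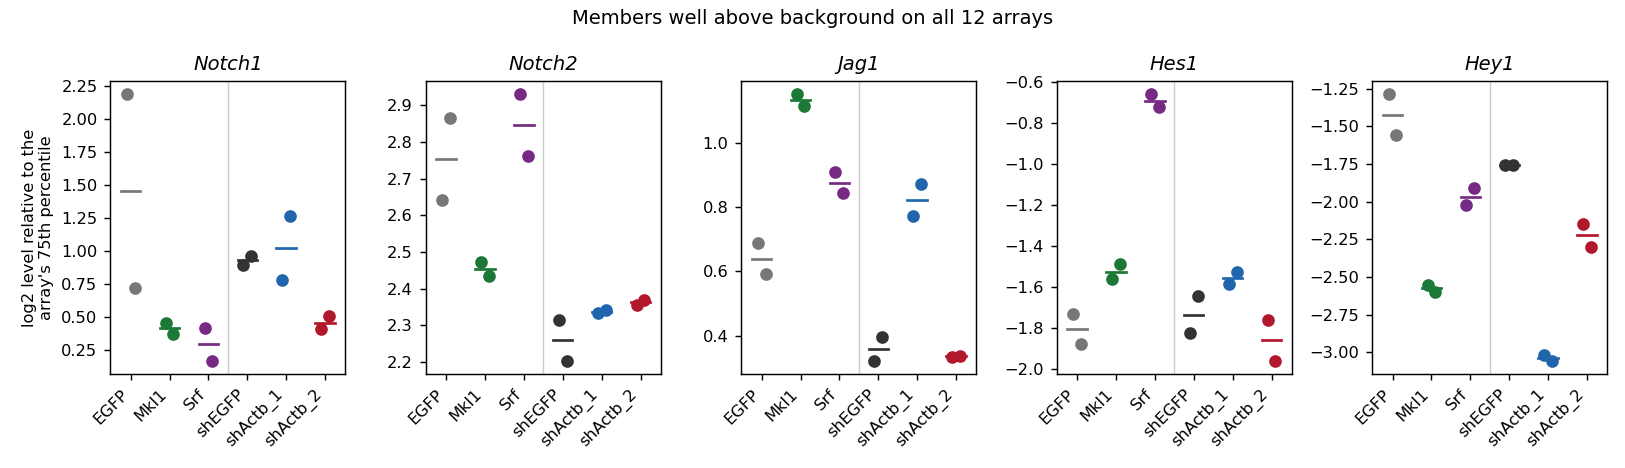
Level of the 5 members that were well above background on all 12 arrays (vertical axis, log2 signal relative to the array's 75th percentile, with its own range in each panel) in the 6 groups (horizontal axis). Points are arrays, 2 per group, and bars are group means. Hey1 is below its control in every treated group, Jag1 is highest with Mkl1, Hes1 is highest on the arrays labelled Srf, and the EGFP arrays of Notch1 lie 1.47 apart.

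Among the receptors, neither Notch1 nor Notch2 passed in any comparison with a control by its brightest probe. Notch1, the receptor of most progenitors, read 2.19 and 0.72 on the EGFP arrays, 0.45 and 0.37 with Mkl1, and 0.42 and 0.17 on the arrays labelled Srf. In the knockdown experiment it read 0.90 and 0.97 with shEGFP, 0.78 and 1.26 with shActb_1, and 0.41 and 0.51 with shActb_2. All 4 arrays of Mkl1 and Srf lay below both EGFP arrays, but the EGFP duplicates were 1.47 apart on the log2 scale, wider than the duplicates of any other group. The log2 fold change against EGFP was -1.16 (SE 0.41, adjusted p = 0.0753, limma) for the arrays labelled Srf and -1.04 (SE 0.41, adjusted p = 0.113) for Mkl1. These values rested on 1 array. Without EGFP replicate 1 they were -0.43 (adjusted p = 0.183) and -0.31 (adjusted p = 0.356), and without EGFP replicate 2 they were -1.90 (adjusted p = 0.00138) and -1.77 (adjusted p = 0.0021). Both also passed with a variance trend and robust estimation (adjusted p = 0.027 and 0.0488), and the Srf value with normexp background correction (-1.13, 0.0421). With the hairpins the values were 0.09 (adjusted p = 0.951) for shActb_1 and -0.47 (adjusted p = 0.384) for shActb_2, and the latter passed with the compared arrays alone (0.0237). A second, dimmer Notch1 probe did not show the split of the EGFP duplicates.

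That second probe read -3.81 and -3.63 on the EGFP arrays, -5.03 and -4.72 with Mkl1, and -4.36 and -4.66 on the arrays labelled Srf. It read -4.80 and -5.07 with shEGFP, -5.55 and -5.47 with shActb_1, and -5.00 and -5.83 with shActb_2. Both EGFP arrays were above all others, and it was well above background on 10 of 12 arrays. With Mkl1 it fell by 1.15 in log2 units (SE 0.26, adjusted p = 0.0195), and it did not pass on the arrays labelled Srf (-0.79, adjusted p = 0.0611) or with either hairpin (-0.58, adjusted p = 0.239, and -0.48, adjusted p = 0.176). Other settings moved these calls: the Srf value passed with normexp background correction (-0.40, adjusted p = 0.0193) and with quantile normalization (-0.68, 0.0235), and the shActb_2 value was -0.89 (0.016) without shActb_2 replicate 1 and -0.07 without replicate 2. Its Mkl1 value left the threshold when any of the 4 compared arrays was left out (adjusted p up to 0.0991).

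Notch2, a second receptor of neural progenitors, read 2.64 and 2.87 on the EGFP arrays, 2.47 and 2.44 with Mkl1, and 2.93 and 2.76 on the arrays labelled Srf. On the knockdown arrays it read 2.31 and 2.20 with shEGFP, 2.33 and 2.34 with shActb_1, and 2.36 and 2.37 with shActb_2. The Mkl1 arrays were below both EGFP arrays, and the arrays labelled Srf overlapped them. The log2 fold changes were -0.30 (SE 0.09, adjusted p = 0.0555) with Mkl1, 0.09 (95% interval -0.12 to 0.30) on the arrays labelled Srf, 0.08 (-0.14 to 0.29) with shActb_1 and 0.10 (-0.11 to 0.32) with shActb_2. The Mkl1 value lay just outside the threshold and came inside it under 6 of 14 other settings. A dimmer Notch2 probe gave -0.35 with Mkl1 (adjusted p = 0.13) and between -0.17 and 0.01 in the other comparisons.

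Of the ligands, Jag1 was the one that could be tested, and it rose in 3 of the 4 comparisons. Jag1, a ligand that activates Notch on neighbouring cells, read 0.69 and 0.59 on the EGFP arrays, 1.15 and 1.12 with Mkl1, and 0.91 and 0.84 on the arrays labelled Srf. In the knockdown experiment it read 0.32 and 0.39 with shEGFP, 0.77 and 0.87 with shActb_1, and 0.33 and 0.34 with shActb_2. The Mkl1, Srf and shActb_1 arrays lay above both arrays of their control, while the shActb_2 arrays lay between the shEGFP arrays. The increase was 0.50 on the log2 scale with Mkl1 (SE 0.06, adjusted p = 0.00255), 0.24 on the arrays labelled Srf (SE 0.06, adjusted p = 0.0336) and 0.47 with shActb_1 (SE 0.07, adjusted p = 0.00561), so 1.18-fold to 1.41-fold. With shActb_2 it was -0.02 (95% interval -0.18 to 0.13, adjusted p = 0.808). From Mkl1 downwards the groups ran Mkl1, Srf, shActb_1, EGFP, shEGFP, shActb_2, and the ranges of Srf and shActb_1 overlapped, as did those of shEGFP and shActb_2. Fitting the compared arrays alone ended all 3 calls (adjusted p = 0.111 for Mkl1, 0.218 for the arrays labelled Srf and 0.0698 for shActb_1). The call for the arrays labelled Srf also ended without a filter on dim probes (adjusted p = 0.102) or without EGFP replicate 2 or either Srf array (0.087 to 0.16), and that for shActb_1 without shEGFP replicate 1 (0.0515).

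Dll1, a ligand that committed neuronal precursors present to their neighbours, was not well above background on any array. It read between -7.01 and -5.71 over the 12 arrays. The highest pair, -5.71 and -5.85, came from the arrays labelled Srf, and the other 10 arrays ran from -7.01 to -6.18. At this signal Dll1 was not tested.

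**Figure D2:**
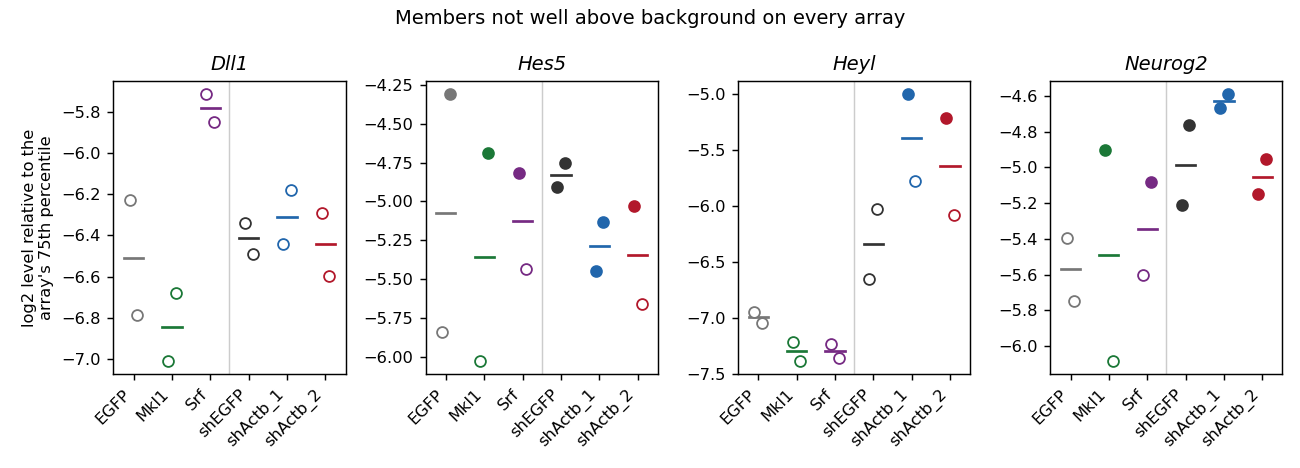
Level of the 4 members that were not well above background on every array (vertical axis, log2 signal relative to the array's 75th percentile) in the 6 groups (horizontal axis). Filled points are arrays where the probe was well above background, open points are those where it was not, and bars are group means. Dll1 has 0 filled points, Heyl has 2, and Hes5 and Neurog2 have 8 each.

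The effectors Hes1 and Hey1, both repressors turned on by activated Notch, did not move together. Hes1 read -1.73 and -1.88 on the EGFP arrays, -1.56 and -1.49 with Mkl1, and -0.66 and -0.72 on the arrays labelled Srf. On the knockdown arrays it read -1.83 and -1.64 with shEGFP, -1.59 and -1.53 with shActb_1, and -1.76 and -1.96 with shActb_2. The arrays labelled Srf stood above the other 10, which lay between -1.96 and -1.49. Hes1 rose there by 1.11 in log2 units, 2.16-fold (SE 0.10, adjusted p = 0.000231), and stayed past the threshold under all 14 other settings tried (0.89 to 1.19). With Mkl1 it was 0.28 higher (SE 0.10, adjusted p = 0.08) and with shActb_1 0.18 higher (adjusted p = 0.344), both short of the threshold, and with shActb_2 the value was -0.12 (adjusted p = 0.34). The Mkl1 value passed with quantile normalization (0.34, adjusted p = 0.0416) and with 1 probe per gene (0.28, 0.047).

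Hey1 was the member that passed in all 4 comparisons, and it fell in each, as did 1.29% of the 14778 named genes tested in all 4. It read -1.29 and -1.56 on the EGFP arrays, -2.55 and -2.60 with Mkl1, and -2.02 and -1.91 on the arrays labelled Srf. In the knockdown experiment it read -1.75 and -1.76 with shEGFP, -3.02 and -3.05 with shActb_1, and -2.15 and -2.30 with shActb_2. Both arrays of every treated group lay below both arrays of their control. Hey1 fell by 1.15 on the log2 scale with Mkl1 (2.22-fold, SE 0.10, adjusted p = 0.000538) and by 1.28 with shActb_1 (2.43-fold, SE 0.10, adjusted p = 0.000454). It fell by less on the arrays labelled Srf, by 0.54 (1.46-fold, adjusted p = 0.0065), and with shActb_2, by 0.47 (1.38-fold, adjusted p = 0.00825). In descending order the groups were EGFP, shEGFP, Srf, shActb_2, Mkl1 and shActb_1, and no neighbours in this order overlapped. Srf and Mkl1 share the EGFP arrays and the hairpins share the shEGFP arrays, so the values within an experiment are not independent. Fitting the compared arrays alone ended the calls for Mkl1 (adjusted p = 0.0687) and the arrays labelled Srf (0.107), and leaving out shActb_2 replicate 2 ended that for shActb_2 (0.0712).

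Hes5, another repressor of the family and a common marker of Notch activity in neural progenitors, was dim and uneven between duplicates. It read -5.84 and -4.31 on the EGFP arrays, -6.02 and -4.69 with Mkl1, and -4.82 and -5.43 on the arrays labelled Srf. On the knockdown arrays it read -4.91 and -4.75 with shEGFP, -5.45 and -5.13 with shActb_1, and -5.03 and -5.66 with shActb_2. The overexpression groups overlapped and were not tested, since each had an array that was not well above background. Both hairpins lay below shEGFP, by 0.46 (log2 fold change -0.46, 95% interval -1.80 to 0.89) and by 0.52 (-0.52, -1.86 to 0.83), with intervals too wide for a call (adjusted p = 0.756 and 0.508). Heyl, the third Hey gene, read between -7.38 and -6.95 over the 6 overexpression arrays, not well above background on any of them. It read -6.65 and -6.03 with shEGFP, -5.01 and -5.78 with shActb_1, and -5.22 and -6.09 with shActb_2, and the first array of each hairpin group was the one well above background. The shActb_1 arrays lay above the shEGFP arrays, but no test was made with 1 of 2 arrays above background.

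Neurog2, the proneural transcription factor, showed no change that passed. It read -5.40 and -5.75 on the EGFP arrays, -4.90 and -6.08 with Mkl1, and -5.60 and -5.08 on the arrays labelled Srf, with 2 of these 6 arrays well above background and no test. In the knockdown experiment all 6 arrays were above background, at -5.21 and -4.76 with shEGFP, -4.67 and -4.59 with shActb_1, and -5.15 and -4.95 with shActb_2. The shActb_1 arrays lay above the others and the shActb_2 arrays between the shEGFP arrays. The log2 fold changes were 0.36 (95% interval -0.50 to 1.22, adjusted p = 0.68) and -0.06 (-0.93 to 0.80, adjusted p = 0.903).

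**Figure D3:**
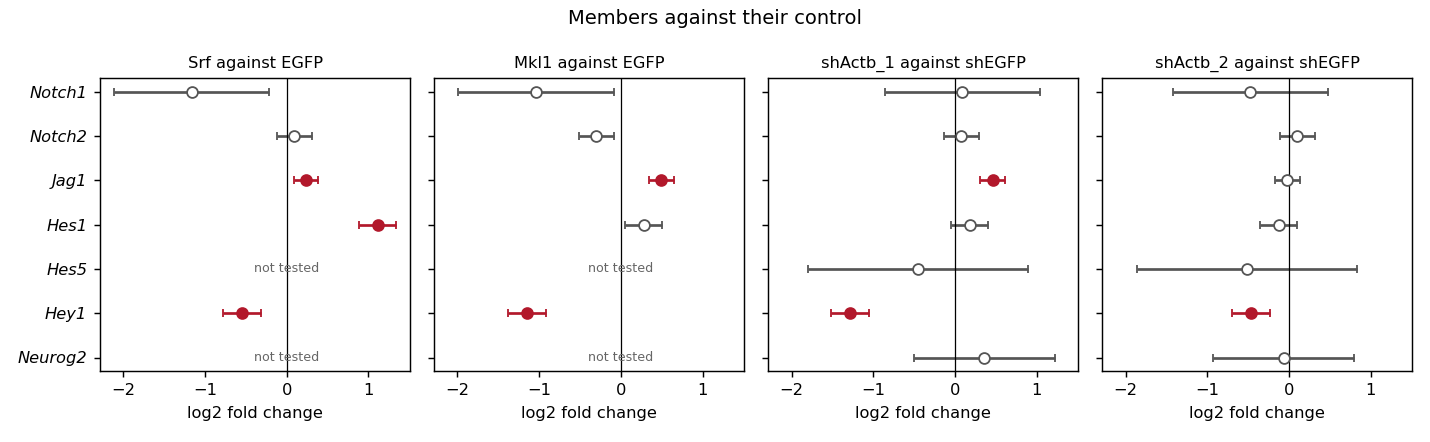
Log2 fold change (horizontal axis) of the 7 members tested in at least 1 comparison (vertical axis, brightest probe of each) against the control named above each panel. Bars are 95% intervals from the fit of all 12 arrays, and filled red points have an adjusted p under 0.05. Hey1 lies left of 0 in all 4 panels, from -0.47 to -1.28, Jag1 right of 0 in 3, and Hes1 passes on the arrays labelled Srf.

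These counts stand beside a broad change of the arrays. On the arrays labelled Srf, 2 of 5 members rose and 1 fell, where 13.0% of all 35492 probes tested rose and 12.5% fell. With Mkl1, 1 of 5 rose and 1 fell, against 12.5% and 8.34% of 35701 probes. With shActb_1, 1 of 7 rose and 1 fell, against 5.30% and 4.12% of 36175 probes, and with shActb_2, 0 rose and 1 fell, against 21.7% and 18.6% of 36111 probes. The members were counted by 1 probe each, while these shares are over all probes, named or not. With 1 probe per named gene, adjusted over those genes, 3224 rose and 3086 fell of 15665 on the arrays labelled Srf. The counts were 3461 and 2259 of 15637 with Mkl1, 1895 and 1345 of 15819 with shActb_1, and 4830 and 2827 of 15848 with shActb_2. By the brightest probe, the members that passed with a change over 2-fold were Hes1 on the arrays labelled Srf (where 5.54% of probes did), Hey1 with Mkl1 (2.79%) and with shActb_1 (1.61%), and none with shActb_2 (6.31%). The dimmer Notch1 probe passed over 2-fold with Mkl1 as well (2.23-fold lower). The median log2 fold change of all probes tested lay between -0.0358 and 0.0072 in these comparisons.

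Set directly against each other, Srf and Mkl1 arrays differed in 4 of 5 members tested, where 25.6% of probes did. On the arrays labelled Srf, Hes1 was higher by 0.83 (SE 0.10, adjusted p = 0.00078), Hey1 by 0.61 (SE 0.10, adjusted p = 0.00372) and Notch2 by 0.39 (adjusted p = 0.0178), and Jag1 was 0.26 lower there (log2 fold change -0.26, adjusted p = 0.0235). The Notch2 and Jag1 differences left the threshold under 5 and 6 of 14 other settings (adjusted p up to 0.116 and 0.135). The hairpins, both directed at Actb, differed in 3 of 7 members, where 32.1% of probes differed. Hey1 was 0.81 higher with shActb_2 than with shActb_1 (SE 0.10, adjusted p = 0.00138), and Jag1 and Hes1 had log2 fold changes of -0.49 (adjusted p = 0.00199) and -0.30 (adjusted p = 0.0474), and that of Hes1 left the threshold under 8 of 13 other settings (adjusted p up to 0.272), at -0.20 without shActb_2 replicate 2. The shActb_2 arrays were alone on their slide, so that hairpin and slide cannot be told apart. The controls differed too: shEGFP arrays were lower than EGFP arrays in 3 of 7 members, where 37.5% of probes differed, namely Notch2 (-0.49, adjusted p = 0.00671), Hey1 (-0.33, adjusted p = 0.0352) and Jag1 (-0.28, adjusted p = 0.015), with experiment, vector and slide inseparable. None of the 3 passed with the compared arrays alone, Jag1 did not without shEGFP replicate 1, and Hey1 ended under 6 of 13 settings and was -0.20 without EGFP replicate 1 (adjusted p = 0.124). The dimmer Notch1 probe was lower there too (-1.21, adjusted p = 0.0109).

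The rest of the pathway was taken from a list of 60 genes, of which 58 had a probe and 54 were tested. The arrays labelled Srf had 8 that rose and 11 that fell (median log2 fold change -0.039), and with Mkl1 8 rose and 7 fell (-0.0504). With shActb_1 5 rose and 4 fell (0.00107), and with shActb_2 13 rose and 9 fell (0.111). Of all probes tested, 13.0% rose and 12.5% fell on the arrays labelled Srf, and 12.5% and 8.34% with Mkl1. These shares were 5.30% and 4.12% with shActb_1, and 21.7% and 18.6% with shActb_2. Over 2-fold, 3 passed on the arrays labelled Srf (5.56% of the 54), 1 with Mkl1 (1.85%), 2 with shActb_1 (3.70%) and 3 with shActb_2 (5.56%), beside 5.54%, 2.79%, 1.61% and 6.31% of all probes.

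**Figure D4:**
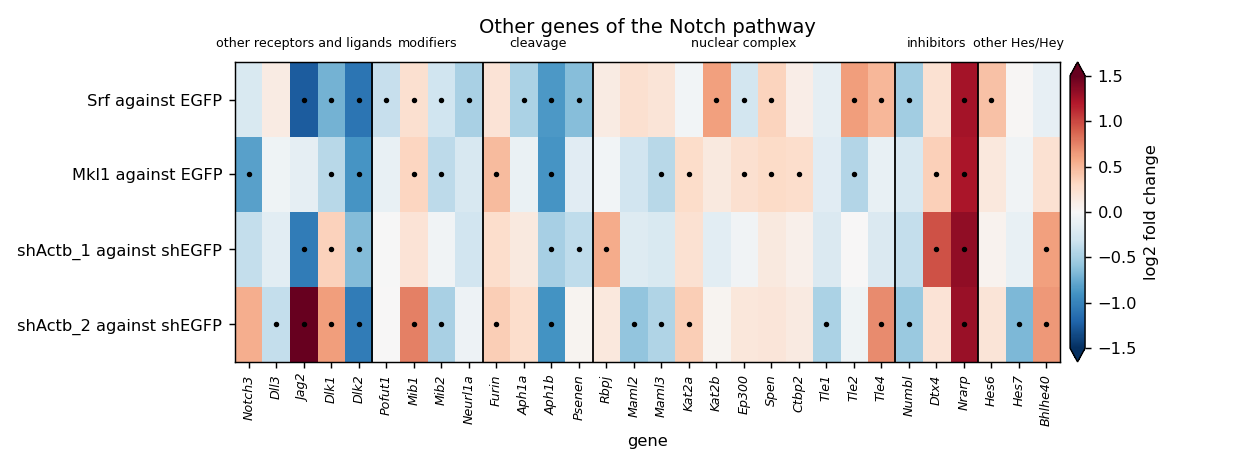
Log2 fold change (colour, from blue for lower to red for higher, ends of the scale open) of the other pathway genes named in the text (horizontal axis, grouped by role) in the 4 comparisons with a control (vertical axis). Dots mark an adjusted p under 0.05. Nrarp is red, and Dlk2 and Aph1b are blue, with a dot in all 4 rows, and Jag2 is blue in the row of shActb_1 and red in that of shActb_2.

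Nrarp, a direct Notch target that in turn dampens Notch signalling, rose in all 4 comparisons, opposite in direction to Hey1. It was 1 of 54 other pathway genes (1.85%) to do so, near the 2.21% of all named genes, so that this count says nothing particular to the pathway. It read -3.18 and -2.44 on the EGFP arrays, -1.73 and -1.45 with Mkl1, and -1.57 and -1.56 on the arrays labelled Srf. It read -3.70 and -3.64 with shEGFP, -2.46 and -2.22 with shActb_1, and -2.39 and -2.36 with shActb_2. All treated arrays lay above both arrays of their control. The log2 fold changes were 1.25 on the arrays labelled Srf (SE 0.22, adjusted p = 0.00534), 1.22 with Mkl1 (adjusted p = 0.0083), 1.33 with shActb_1 (adjusted p = 0.00972) and 1.29 with shActb_2 (adjusted p = 0.0031). With normexp background correction the differences were lower, at 0.71 to 0.76, and all past the threshold. Leaving out single arrays kept the values between 0.85 and 1.61 but ended the call for Mkl1 (Mkl1 replicate 2 left out) and for shActb_1 (either shEGFP array or shActb_1 replicate 2 left out), with adjusted p up to 0.0734. Fitting the compared arrays alone ended it for Mkl1 (adjusted p = 0.121) and the arrays labelled Srf (0.0883).

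Among the other receptors and ligands (8 genes tested), Dlk2, a non-canonical ligand, fell in all 4 comparisons, with log2 fold changes of -1.10, -0.88, -0.66 and -1.05 for Srf, Mkl1, shActb_1 and shActb_2 in that order, and a second Dlk2 probe fell as well in each (-0.86, -0.71, -0.37 and -0.85). Dlk2 and Aph1b were the 2 of 54 other pathway genes (3.70%) that fell in all 4, beside 1.29% of all named genes. Dlk1, its relative, fell in the overexpression groups (-0.71 and -0.41) and rose with the hairpins (0.34 and 0.62), though a second Dlk1 probe did not pass with shActb_1 (0.32, adjusted p = 0.129) and the shActb_1 call ended under 7 of 14 settings, each array left out among them (adjusted p up to 0.175). Jag2, a canonical ligand, split the hairpins: it fell by 1.05 with shActb_1 (adjusted p = 0.0333) and rose by 1.56 with shActb_2 (adjusted p = 0.00202), and the direct difference was 2.61 (SE 0.23, adjusted p = 0.000491). It also fell on the arrays labelled Srf (-1.24), short of the threshold without Srf replicate 1 (adjusted p = 0.0536). The shActb_1 decrease of Jag2 left the threshold with normexp background correction, quantile normalization, no filter on dim probes, the compared arrays alone or 3 of the 4 arrays left out in turn (adjusted p up to 0.184). Notch3 fell with Mkl1 (-0.82, adjusted p = 0.0403) and passed in no other comparison with a control, but this call ended under 7 of 14 other settings (-0.48, adjusted p = 0.103, without EGFP replicate 2), and Dll3 fell with shActb_2 (-0.36), a call that ended under 8 of 13 (adjusted p up to 0.251).

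Of the 8 genes tested whose products cut the receptor, Aph1b, a subunit of γ-secretase, fell in all 4 comparisons (-0.87, -0.89, -0.49 and -0.90), by both of its probes. Psenen, another subunit, fell on the arrays labelled Srf (-0.64) and with shActb_1 (-0.38), Aph1a fell on the arrays labelled Srf by its brightest probe (-0.47) and not by its second (0.19), and Furin, which cuts the receptor during its maturation, rose with Mkl1 (0.47) and shActb_2 (0.37). With any single array left out, Aph1b with shActb_1 and Furin with shActb_2 missed the threshold, as did Psenen with shActb_1 in 3 of 4 cases, Aph1a without either Srf array and Furin with Mkl1 without Mkl1 replicate 1. Among 9 genes whose products modify or ubiquitinate ligands and receptors, Mib1, the ubiquitin ligase that sends ligands into endocytosis, rose on the arrays labelled Srf (0.24), with Mkl1 (0.32) and with shActb_2 (0.75). Its relative Mib2 fell in the same comparisons (-0.29, -0.40 and -0.48), and none of the 9 passed with shActb_1. Neurl1a (-0.48), a ubiquitin ligase of ligands, and Pofut1 (-0.34), which adds fucose to the receptor, fell on the arrays labelled Srf, and so did a second probe of each (-0.57 and -0.39), but the Neurl1a call ended without Srf replicate 2 and the Pofut1 call without either Srf array. The calls of Mib1 and Mib2 on the arrays labelled Srf each ended under 5 of 14 settings, with Mib2 at -0.19 without EGFP replicate 2. With Mkl1, the calls of Mib1 and Mib2 both ended without Mkl1 replicate 2.

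In the nuclear complex and its corepressors (16 genes), 5 rose and 1 fell on the arrays labelled Srf, while Mkl1 had 4 that rose and 2 that fell, shActb_1 had 1 that rose, and shActb_2 had 7 that rose and 3 that fell. Rbpj, the DNA-binding protein of the pathway, was the 1 that rose with shActb_1 (0.55), though not without shEGFP replicate 1 (adjusted p = 0.0671) and not by its second probe (0.33), which rose instead on the arrays labelled Srf (0.55) and with shActb_2 (0.56), where the brightest probe did not pass. The corepressors Tle2 (0.63) and Tle4 (0.50) and the acetyltransferase Kat2b (0.62) rose on the arrays labelled Srf, as did the corepressor Spen (0.34), while the acetyltransferase Ep300 fell (-0.27). With Mkl1, Spen (0.29), Kat2a (0.28), Ctbp2 (0.27) and Ep300 (0.24) rose, and Tle2 (-0.44) and the coactivator Maml3 (-0.41) fell. Tle4 rose with shActb_2 (0.71), where Tle1 (-0.48) and the coactivators Maml2 (-0.59) and Maml3 (-0.46) fell. Single arrays left out ended all the Mkl1 calls just named (Tle2 -0.27 without EGFP replicate 1), the Srf calls of Spen and Ep300, and the shActb_2 call of Tle1. The Srf call of Tle4 ended without Srf replicate 2, and the shActb_2 call of Maml2 without shEGFP replicate 1 or shActb_2 replicate 2. Other probes of the corepressors disagreed: none of 3 other Tle1 probes passed with shActb_2, while 2 of them fell with Mkl1 and with shActb_1. The second Tle4 probe was 0.25 on the arrays labelled Srf and 0.05 with shActb_2, neither past the threshold, fell with Mkl1 (-0.60) and rose with shActb_1 (0.48), and that of Tle2 rose on the arrays labelled Srf (1.09) and fell with shActb_1 (-0.72), where the brightest probe read 0.01. Among the inhibitors (8 tested) Dtx4, a ubiquitin ligase, rose with shActb_1 (0.96) and with Mkl1 (0.35), and Numbl, an antagonist of Notch, fell on the arrays labelled Srf (-0.52) and with shActb_2 (-0.56). The Mkl1 call of Dtx4 ended under 6 of 14 settings (0.20, adjusted p = 0.147, without EGFP replicate 1), and the Srf call of Numbl without Srf replicate 2. Of the other Hes and Hey genes, 5 of 8 were tested. Hes6, an inhibitor of Hes1, rose on the arrays labelled Srf (0.44), Bhlhe40 rose with shActb_1 (0.61) and shActb_2 (0.65), and Hes7 fell with shActb_2 (-0.67). Leaving out any of 3 of the 4 arrays ended the shActb_1 call of Bhlhe40.

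The proneural side was mostly dim. Of 13 other proneural genes of the basic helix-loop-helix family, 5 or 6 were tested, and Neurod1, Neurod4, Neurod6, Bhlhe22 and Nhlh2 were not well above background on any array. Neurog1, the closest relative of Neurog2, fell with shActb_2 (-0.78, adjusted p = 0.0483), as did Nhlh1 by its brightest probe (-0.63) and not by its second (-0.11). The Neurog1 call ended under 7 of 13 other settings, each of the 4 arrays left out among them (adjusted p up to 0.249), and that of Nhlh1 under 5 of 13 (-0.41, adjusted p = 0.168, without shActb_2 replicate 2). Neurod2 rose on the arrays labelled Srf (1.96), with Mkl1 (1.12) and with shActb_2 (1.27), and was -0.09 with shActb_1 (adjusted p = 0.924), and its Mkl1 call ended under 5 of 13 settings (adjusted p up to 0.159). Atoh8 fell with Mkl1 (-1.14) and shActb_1 (-1.22) and was 0.41 on the arrays labelled Srf and 0.29 with shActb_2, neither past the threshold, and its decreases missed the threshold without Mkl1 replicate 2 and without either shEGFP array. The direct differences of Atoh8 were 1.55 between the arrays labelled Srf and Mkl1 (adjusted p = 0.00138) and 1.51 between the hairpins (adjusted p = 0.00199).

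The Id genes, whose products bind E proteins and so keep proneural factors from DNA, moved in opposite directions with the hairpins. All 4 of them fell with Mkl1 (Id1 -0.63, Id2 -0.96, Id3 -0.84, Id4 -0.68) and with shActb_1 (-0.65, -1.15, -0.79 and -0.64), and all 4 rose with shActb_2 (Id1 0.41, Id3 0.38, Id4 0.71, and Id2 by more than these). On the arrays labelled Srf, Id2 fell (-0.80), Id4 rose (0.57), and Id1 (-0.03) and Id3 (-0.30) did not pass. The direct difference between the hairpins lay between 1.06 and 2.15 for the 4 genes, each with an adjusted p under 0.05. The decreases with Mkl1 ended for all 4 with the compared arrays alone (adjusted p = 0.0948 to 0.124), and for Id2 and Id4 also without EGFP replicate 1 or either Mkl1 array. With shActb_1, Id1, Id3 and Id4 left the threshold with the compared arrays alone (0.0507 to 0.0959), Id2, Id3 and Id4 without either shEGFP array, and all 4 without shActb_1 replicate 2. On the arrays labelled Srf, both calls ended with the compared arrays alone and without single arrays, with Id2 at -0.51 without EGFP replicate 1. The increases of Id1 and Id3 with shActb_2 did not hold throughout: they were 0.24 and 0.19 with quantile normalization (adjusted p = 0.102 and 0.282), and they also left the threshold with the compared arrays alone and with 3 of the 4 arrays left out in turn for Id1 and any of them for Id3. Of the E proteins, Tcf4 fell in all comparisons but shActb_1 (-0.34, -0.51 and -0.38), Tcf3 fell on the arrays labelled Srf (-0.50) and rose with shActb_2 (0.26), and Tcf12 passed in none. Second probes differed in part: the Tcf4 one was -0.30 and short of the threshold on the arrays labelled Srf, and the Tcf3 one rose by 0.62 with shActb_2. The Srf call of Tcf4 ended under 7 of 14 settings, its shActb_2 call without shEGFP replicate 1 or shActb_2 replicate 2, its Mkl1 call without Mkl1 replicate 2, and the shActb_2 call of Tcf3 with any array left out.

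**Figure D5:**
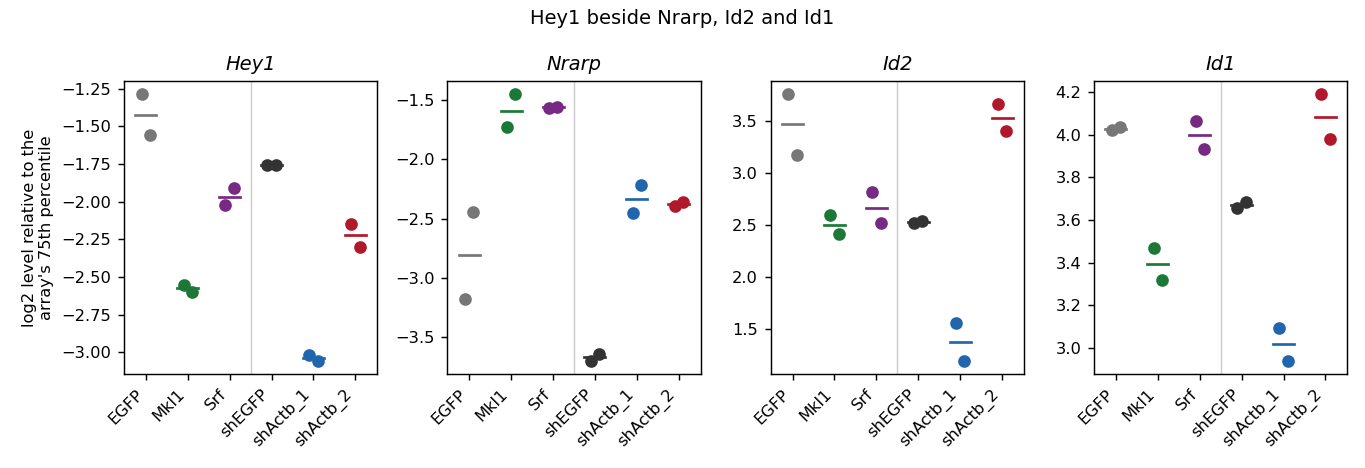
Level of Hey1 beside Nrarp, Id2 and Id1 (vertical axis, log2 signal relative to the array's 75th percentile, with its own range in each panel) in the 6 groups (horizontal axis). Points are arrays, 2 per group, and bars are group means. Hey1 is lower and Nrarp higher than the control in every treated group, while Id2 and Id1 are lower than shEGFP with shActb_1 and higher with shActb_2.

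Of 15 genes of neuronal differentiation, 13 were tested against each control, and 2 or 3 rose and 2 to 4 fell in each comparison. Stmn2, a regulator of microtubules in growing neurons, fell by 3.88 on the arrays labelled Srf and by 1.46, 1.41 and 1.29 with Mkl1, shActb_1 and shActb_2, and Map2, a microtubule protein of dendrites, fell in all 4 comparisons too (-0.87, -1.49, -1.27 and -1.14). Gadd45g, a target of proneural factors, rose in all 4 (0.97, 0.77, 0.77 and 0.84). Tubb3, the neuronal β-tubulin (1.53), and Insm1, a factor of neuronal precursors (2.06), rose on the arrays labelled Srf. Eomes, a factor of intermediate progenitors, rose with Mkl1 (0.71), shActb_1 (0.59) and shActb_2 (1.22), but not with shActb_1 when any array was left out. Elavl4 (-0.77) and Cbfa2t3 (-1.10) fell with shActb_2, where a second Cbfa2t3 probe read 0.40 (adjusted p = 0.0532). The summed level of the 15 genes, on the linear scale, was 44.3 to 48.1 in EGFP, 56.2 to 60.0 with Mkl1, 61.0 to 68.1 on the arrays labelled Srf, 40.2 to 40.9 in shEGFP, 50.3 to 51.6 with shActb_1 and 50.3 to 52.8 with shActb_2. Gadd45g alone made up 47.4% to 75.1% of this sum, and the summed level of the other 14 ran the opposite way, at 21.3 to 22.6 in EGFP, 16.7 with Mkl1, 16.6 to 16.9 on the arrays labelled Srf, 21.1 to 21.5 in shEGFP, 18.1 to 18.2 with shActb_1 and 16.9 to 17.2 with shActb_2. Their part in the members' values was not tested.

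Markers of cell types were counted in the same way. Of all probes tested, 13.0% rose and 12.5% fell on the arrays labelled Srf, and 12.5% and 8.34% with Mkl1. The shares were 5.30% and 4.12% with shActb_1 and 21.7% and 18.6% with shActb_2. Counts in lists this short do not set a list apart from these shares. Of 9 progenitor markers tested, 3 rose and 1 fell on the arrays labelled Srf, whereas with Mkl1 1 rose and 4 fell, 0 rose and 4 fell with shActb_1, and 3 rose and 2 fell with shActb_2. Slc1a3, a glutamate transporter of radial glia, fell with Mkl1 (-1.37) and both hairpins (-1.30 and -1.11), and Sox2 fell in all comparisons but shActb_2 (-1.05, -0.89 and -1.01). Nes, the intermediate filament of progenitors, rose with Mkl1 (1.16) and shActb_2 (0.80), where Pax6 (0.57) and Vim (0.52) rose and Sox1 fell (-0.73) too. Fabp7, a fatty acid binding protein of radial glia, rose on the arrays labelled Srf (0.93), as did Prom1 (0.89) and Pax6 (0.35), and both Fabp7 (-0.66 and -1.27) and Prom1 (-0.62 and -0.43) fell with Mkl1 and shActb_1. Of these, Fabp7 with Mkl1 ended under 8 of 14 settings (-0.37 without EGFP replicate 1), Prom1 with shActb_1 under 10 of 14 and Pax6 on the arrays labelled Srf under 6 of 14 (0.22 without EGFP replicate 1). Single arrays left out also ended the calls of Fabp7 on the arrays labelled Srf (Srf replicate 1) and with shActb_1 (shEGFP replicate 2 or shActb_1 replicate 2), and of Sox1 (shEGFP replicate 1 or shActb_2 replicate 2). Among 7 vascular and mural markers, where Notch is also active, Cdh5 and Tek were at background on all arrays, 4 genes were tested, and the mural receptor Pdgfrb fell with Mkl1 (-1.69), shActb_1 (-1.87) and shActb_2 (-1.75). The endothelial receptor Kdr also fell with shActb_2 (-0.54), though not past the threshold without shActb_2 replicate 2 (adjusted p = 0.0507). The summed level of the 7 ranged from 6.02 to 7.77 over the overexpression arrays and from 6.26 to 11.2 over the knockdown arrays, of which Kdr alone made up 70.3% to 89.0%. Without Kdr the sum was 0.953 to 2.13 and 0.905 to 2.19. Of 6 glial markers tested, 2 rose on the arrays labelled Srf (Aldh1l1 0.78, Mog 0.70), 1 rose with Mkl1 (Mog 0.66), 1 fell with shActb_1 (Aldh1l1 -0.98) and 3 fell with shActb_2 (Aqp4 -0.86, Mog -0.78, Aldh1l1 -0.70), where Aqp4 ended without either shEGFP array or shActb_2 replicate 2. Their sum was 16.6 to 31.7 over the overexpression arrays, with both ends reached by EGFP and Mkl1 arrays, and 13.4 to 15.8 over the knockdown arrays. Of the pluripotency markers, 1 of 5 tested rose and 1 fell on the arrays labelled Srf (Esrrb 2.53, Klf4 -0.71), 2 of 4 fell with Mkl1 (Nanog -0.90, Klf4 -0.41), Esrrb rose (0.78) and Nanog fell (-0.78) with shActb_1, and Esrrb rose (0.90) while Nanog (-0.64) and Klf4 (-0.54) fell with shActb_2, and Pou5f1, which defines the state, passed in none. Their sum was 2.84 to 5.06 over the overexpression arrays and 3.20 to 4.29 over the knockdown arrays. Of 3 microglial markers tested, Csf1r rose (1.44) and Aif1 fell (-1.29) on the arrays labelled Srf, Aif1 fell with Mkl1 (-1.51), none passed with shActb_1, and Ptprc fell with shActb_2 (-1.02), and their sum was 0.589 to 1.87 and 0.852 to 1.48. Aif1 ended under 4 of 13 settings on the arrays labelled Srf (-0.83 without Srf replicate 2) and under 5 of 13 with Mkl1, Ptprc under 7 of 13 (-0.50 without shEGFP replicate 1 and -1.53 without shEGFP replicate 2), and Esrrb with shActb_1 without shActb_1 replicate 1. Other probes disagreed in part: 1 of 2 other Csf1r probes did not pass on the arrays labelled Srf (0.05), and 1 of 2 other Nanog probes did not pass with Mkl1 (-0.08) or shActb_1 (-0.22). The part of these genes in the members' values was not tested.

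Over the 12 arrays the genes most like each member in level were listed among 13927 named genes above background on all arrays. Hey1 was most like Calml4 (r = 0.99), Gucy1a1 (0.989) and Rcan2 (0.971), and Jag1 was most like Mmd (0.959), Larp4 (0.947) and Igsf5 (0.946). Hes1 was most like Llgl2 (0.968), Fcgr4 (0.964) and Gstt2 (0.963), and Notch2 was most like Acd (0.956), Morn1 (0.95) and Sel1l (0.947). Notch1 was most like Slc16a7 (0.994), Gabra2 (0.988) and Cmya5 (0.983), and all 3 also split the EGFP duplicates, at 0.827 and -0.569 for Slc16a7, 2.63 and 0.882 for Gabra2, and 2.85 and 1.23 for Cmya5. EGFP replicate 1 thus read higher than every other array for Notch1 and for these 3 genes alike. These correlations share the arrays and their 6 group means and describe likeness of level only.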

How the data were processed

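RNA of 12 samples was hybridized to 1-colour Agilent arrays. The scans were read by the authors in Feature Extraction 11.5.1.1, and they deposited signal intensity values, background-subtracted and not normalized between arrays, and percentile-shifted log2 values. Their methods give no test. Here log2 of the intensity was taken, control and outlier-flagged spots were left out (a probe flagged on any fitted array was not tested), spots of a probe were averaged, and each array's 75th percentile was subtracted. Accessions of 28026 of 55681 probes (50.3%) matched RefSeq GRCm38.p6, used for names. A gene's value is its brightest probe. Groups came from sample titles. limma 3.58.1 in R 4.3.3 fitted 1 mean per group over all 12 arrays, two-sided, adjusted by Benjamini-Hochberg over all probes tested, and was tested on simulated data. The number of arrays limits the precision.

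The members and lists were chosen with earlier results of these data known. All members were named, with up to 4 genes per list by largest absolute log2 fold change among those that passed against a control, and genes behind counts of 5 or fewer. Tcf12 was named after its values were seen. Some genes are not reported here. Alternatives were normexp (offset 50, on the median spot signal, since the mean was not used here), the deposited log2 table, quantile normalization, 2 other filters on dim probes, 1 probe per gene, the compared arrays only, replicate and slide blocks, a variance trend with robust estimation, a 2-fold limit and each array left out.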

Additional observations from a re-analysis of the deposited data

Results flagged for a closer look

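The members that differed directly between the arrays labelled Srf and the Mkl1 arrays or between the hairpins were singled out, by limma over all 12 arrays. Between the former, the log2 difference (Srf minus Mkl1) was 0.39 for Notch2, -0.26 for Jag1, 0.83 for Hes1 and 0.61 for Hey1, and those of Notch2 and Jag1 left the threshold under 5 and 6 of 14 other settings. Between shActb_2 and shActb_1 it was -0.49 for Jag1, -0.30 for Hes1, which left the threshold under 8 of 13, and 0.81 for Hey1. The arrays labelled Srf had less signal at the Srf probes than EGFP, and shActb_2 was alone on its slide.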

How the results depend on the processing

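Counts of members passing are given against the values of the report, which were 3 for the arrays labelled Srf, 2 for Mkl1, 2 for shActb_1, 1 for shActb_2, 4 for Srf against Mkl1, 3 for the hairpins against each other and 3 for shEGFP against EGFP. With the compared arrays only, 1, 0, 1, 2, 2, 2 and 0 passed. With the 2-fold limit, 1, 1, 1, 0, 0, 0 and 0 passed. For Mkl1 against EGFP, 4 passed with quantile normalization, with 1 probe per gene and with the variance trend and robust estimation. With arrays left out 1 at a time, the lowest and highest counts were 2 and 3 for the arrays labelled Srf, 2 and 3 for Mkl1, 1 and 2 for shActb_1, 0 and 1 for shActb_2, 2 and 3 for Srf against Mkl1, 2 and 3 for the hairpins against each other and 1 and 4 for shEGFP against EGFP. The replicate number as a block gave 3, 2, 2, 1, 4, 2 and 3 (each comparison has 2 pairs, same-numbered deviations correlated at 0.042 to 0.261 against a control and at -0.00232 to 0.0691 in the other comparisons, and the numbers share no stated source). A slide block left comparisons within a slide unchanged by construction and could not be fitted for the others.

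Values of members that changed sign were all short of the threshold, and their causes were not tested. With arrays left out in turn, the lowest and highest were -0.0195 and 0.204 for Notch2 and -0.0396 and 0.0679 for its dimmer probe on the arrays labelled Srf, -0.153 and 0.332 for Notch1 with shActb_1, and, with shActb_2, -0.0582 and 0.0136 for Jag1, -0.289 and 0.16 for Neurog2 and -0.268 and 0.142 for the dimmer Notch2 probe. With shActb_2, normexp gave 0.0148 for Jag1 and 0.063 for Neurog2, and quantile normalization gave 0.128 for Neurog2, -0.0101 for Notch2, 0.112 for its dimmer probe and 0.0256 for Hes1.

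Over all probes, the compared arrays alone passed 2344 in place of 9042 for the arrays labelled Srf, 126 in place of 7428 for Mkl1, 1231 in place of 3408 for shActb_1 and 5015 in place of 14113 for shEGFP against EGFP. No filter passed 4562 for Mkl1 and 1810 for shActb_1, and 1 probe per gene passed 7657 in place of 14557 for shActb_2, 5892 in place of 11344 between the hairpins and 6555 for shEGFP against EGFP. With arrays left out, the counts ran from 4865 to 11834, 2716 to 11291, 1247 to 1767 and 8565 to 11934 in the 4 comparisons with a control. Of the other pathway genes, the compared arrays alone passed 4 in place of 19, 0 in place of 15, 3 in place of 9 and, for shEGFP against EGFP, 2 in place of 19, and with arrays left out 11 to 25, 3 to 23, 3 to 5 and 13 to 19 passed against a control. With normexp, 32.3% of the probes passing in shEGFP against EGFP were higher, in place of 45.1%, with the median of all probes at -0.103, and with 1 probe per gene 63.2% of those passing between the hairpins were higher, in place of 52.1%. Other settings moved the shEGFP against EGFP share the other way, to 52.9% with quantile normalization and 56.4% with the compared arrays alone. For shActb_1 against shEGFP the compared arrays alone gave 42.2% higher, in place of 56.2%.

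Hes1 on the arrays labelled Srf passed under each of 14 other settings, Hey1 with shActb_1 under 14 and Nrarp with shActb_2 under 13. Signal over background limits Dll1, Heyl, Hes5 and Neurog2.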
